A study of Homo sapiens with 16 samples.

Results

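Genes that mark epithelial or mesenchymal cell state were followed through a drug experiment on cancer cell lines. The 10 genes were set by name, with no threshold on their values: the keratins KRT7, KRT8, KRT18, KRT19, KRT80 and KRT81, the epithelial surface proteins EPCAM and CDH1 (E-cadherin), and the mesenchymal markers CDH2 (N-cadherin) and VIM (vimentin). They are 10 of the 58676 gene identifiers counted in each library. A549, a lung cancer line, and SUM159, a triple-negative breast cancer line, were left untreated (UT) or exposed for 16 h to 2 µM palbociclib (PD), to 3 µM indisulam (IN) or to both drugs at those doses (PI). Palbociclib inhibits the cell cycle kinases CDK4 and CDK6, and indisulam leads to degradation of the splicing factor RBM39. Poly(A) RNA was sequenced in 2 libraries per group, 16 in all. The study calls these duplicates technical, so the p-values given here measure only the spread between these libraries and not the spread between independent cultures. Each line was grown in its own medium, with insulin and hydrocortisone only in that of SUM159, so medium and line cannot be told apart.

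Keratins are the intermediate filament proteins of epithelial cells. A filament is built from pairs, each of 1 acidic type I keratin (KRT18 and KRT19 here) and 1 basic type II keratin (KRT7, KRT8, KRT80 and KRT81). KRT8 with KRT18 is the pair of simple epithelia, to which KRT7 and KRT19 are added in ducts and airways, whereas KRT80 is found in many epithelia and KRT81 is a hair keratin that some carcinomas express. E-cadherin and EPCAM join epithelial cells to each other. When cells take on a mesenchymal state, E-cadherin gives way to N-cadherin and the filament network to vimentin, under repressors such as SNAI2 and ZEB1. Carcinoma lines differ widely in how far they have moved along this axis.

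All keratin members but KRT19 lie together on chromosome 12, with KRT80 (52168996-52192014), KRT7 (52232520-52252186) and KRT81 (52285913-52291534) at one end and the adjoining KRT8 (52897187-52949954) and KRT18 (52948871-52952906) at the other (GRCh38, GENCODE release 44). KRT19 is on chromosome 17 (41523617-41528308), EPCAM on chromosome 2 (47345158-47387601), CDH1 on chromosome 16 (68737292-68835537), CDH2 on chromosome 18 (27932879-28177946) and VIM on chromosome 10 (17228241-17237593). Promoter windows from RefSeq (GRCh38.p14) were matched for 3 of the 10 members, VIM, CDH2 and KRT8. Those of VIM and CDH2, which both fell with indisulam and with the combination in SUM159, are shown (for CDH2 the outer of its 2 windows) from 250 bases before the transcription start up to the start, with the GC box (GGGCGG or its reverse complement) in capitals. That of VIM is chr10:17227991-17228240 on the plus strand and that of CDH2 is chr18:28177131-28177380 on the minus strand.

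VIM: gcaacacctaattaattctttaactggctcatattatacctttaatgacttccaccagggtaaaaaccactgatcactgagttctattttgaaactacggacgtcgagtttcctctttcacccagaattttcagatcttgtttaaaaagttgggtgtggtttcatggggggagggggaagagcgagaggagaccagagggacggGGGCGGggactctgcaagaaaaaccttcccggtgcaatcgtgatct

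CDH2: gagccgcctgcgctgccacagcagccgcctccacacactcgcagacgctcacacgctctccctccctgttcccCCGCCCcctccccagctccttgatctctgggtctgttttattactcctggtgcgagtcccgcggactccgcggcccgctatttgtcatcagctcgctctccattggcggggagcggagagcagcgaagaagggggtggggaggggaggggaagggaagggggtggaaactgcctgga

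Each window shown held 1 GC box, on the plus strand at -46 in VIM and on the minus strand at -177 in CDH2, counted from the start. The other CDH2 window (chr18:28036592-28036891), not shown, held no GC box but a TATA box (TATAAA) at -32 and an AP-1 motif (TGANTCA) at -102, which 11.5% and 7.71% of all windows held. A GC box occurred in 45% of 35116 promoter windows of 300 bases, so its presence is common. The E-box CACCTG, the sequence bound by SNAI and ZEB repressors, was not among the letters of any of these windows on either strand, and it occurred in 20.6% of all windows.

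In untreated cells the 2 lines stood at different places on this axis. A549 transcribed every member, and KRT8 and KRT18 were the most abundant of them per kilobase. SUM159 had high VIM and CDH2, had KRT7 and KRT80 somewhat above the A549 level, and had almost no KRT19, CDH1 or EPCAM. Levels of a gene are given as CPM, read counts relative to the library's total after TMM scaling within each line, always as replicate 1 and replicate 2. Because each line was scaled on its own, ratios of CPM between the lines need not equal the differences of the fit over both lines, which are the tested values. The differences between lines come from 1 fit of all 16 libraries with edgeR, in which 76.3% of 17764 genes tested passed an adjusted p of 0.05 (38.3% higher and 38% lower in SUM159). All 10 members passed, 4 higher and 6 lower in SUM159.

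**Figure D1:**
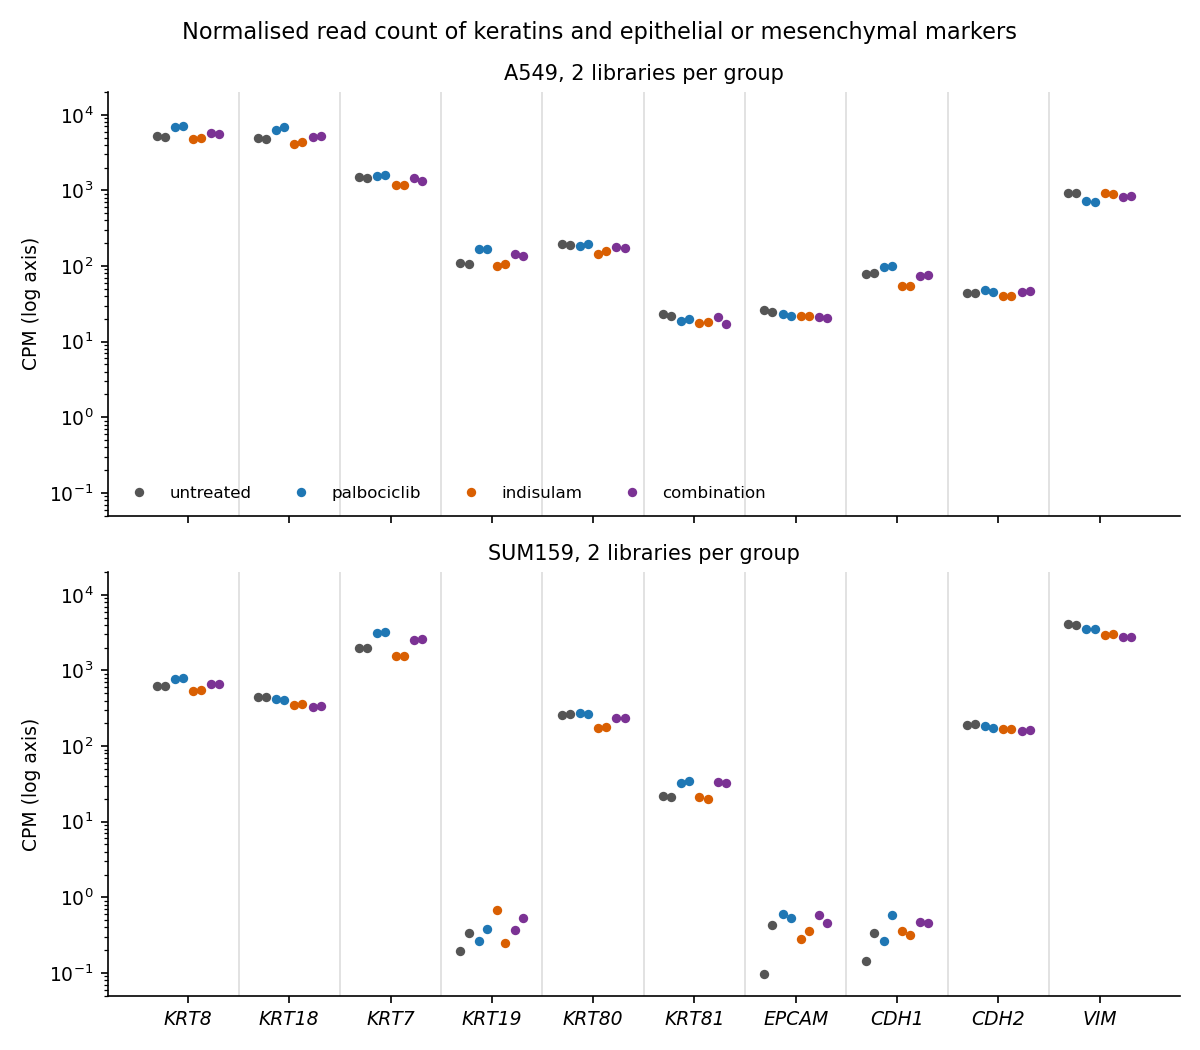
Normalised read count (CPM, log axis) of each member in every library of A549 (top) and SUM159 (bottom), with 1 point per library coloured by treatment. KRT19, EPCAM and CDH1 sit below 1 CPM in all 8 SUM159 libraries, and VIM and CDH2 sit higher there than in A549.

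CDH1 was at 78.9 and 80.6 CPM in untreated A549, against 0.145 and 0.335 CPM in SUM159, where it rested on 3 and 7 counts. The ratio of A549 to SUM159 was 364, with a 95% exact interval of 198 to 760 that covers counting error only. KRT19, the small type I keratin of ducts, was at 109 and 106 CPM in A549 and at 4 and 7 counts in SUM159, a ratio of 446 (249 to 894). EPCAM was at 26.1 and 24.4 CPM in A549 and at 2 and 9 counts in SUM159, a ratio of 105 (58.4 to 211). Across all SUM159 libraries these 3 genes had between 2 and 20 counts, and none passed the test with any drug, the nearest being EPCAM with PD (2 and 9 counts against 16 and 18, adjusted p = 0.0773). Without UT replicate 2, EPCAM passed with PD and with PI, so its value there rests on single libraries. A library's smallest detectable level, 3 counts, lay between 0.088 and 0.164 CPM.

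KRT18 was at 4906 and 4829 CPM in untreated A549 and at 446 and 449 CPM in SUM159. It was lower in SUM159 by a log2 difference of -3.58 ± 0.0484 (SE, adjusted p = 7.39e-27). Its partner KRT8 was at 5279 and 5128 CPM in A549 and at 618 and 630 CPM in SUM159, a log2 difference of -3.19 ± 0.0429 (adjusted p = 6.46e-27). The other type II keratins did not share this gap. KRT7 was at 1485 and 1452 CPM in A549 and 1994 and 1981 CPM in SUM159, higher by 0.30 ± 0.0392 on the log2 scale (adjusted p = 1.64e-07). KRT80 was at 197 and 192 against 255 and 263 CPM, higher by 0.28 ± 0.0454 (adjusted p = 5.17e-06). KRT81 was at 23.3 and 22.1 against 21.9 and 21.1 CPM, and its difference of -0.21 ± 0.0849 (adjusted p = 0.026) was only marginally past the threshold. It lost the call without either untreated library of either line and without 4 further A549 libraries (both PI, PD replicate 1 and IN replicate 2), with values of -0.24 to -0.08 over all single-library omissions.

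The mesenchymal pair went the other way. VIM was at 929 and 922 CPM in untreated A549 and at 4141 and 3964 CPM in SUM159, higher by 2.00 ± 0.0386 on the log2 scale (adjusted p = 8.4e-24). CDH2 was at 43.7 and 44.4 CPM in A549 and 190 and 195 CPM in SUM159, higher by 1.99 ± 0.0496 (adjusted p = 1.49e-21). The fitted ratios were 3.99 for VIM and 3.98 for CDH2. No SUM159 library overlapped with A549, a separation whose share over all genes was not counted. In bulk RNA a higher level cannot be told apart from more cells with the transcript.

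Levels of different genes were compared as counts per kilobase of merged exons relative to the library's sum of such values (the unit of TPM). On this scale the untreated A549 libraries ordered the members as KRT18, KRT8, KRT7, VIM, KRT19, KRT80, CDH1, KRT81, EPCAM and CDH2. KRT18 stood at 5526 and 5398 on this scale and CDH2 at 17.6 and 17.8. Only KRT19 (162 and 155) and KRT80 (156 and 151) overlapped with their neighbour. The SUM159 order was VIM, KRT7, KRT18, KRT8, KRT80, CDH2, KRT81, KRT19, EPCAM and CDH1. VIM led with 3068 and 3157, followed by KRT7 with 1912 and 2042. The last 3 overlapped, all below 1 on the per-length scale. With the length of the canonical transcript in place of merged exons, KRT8 (759 and 807) came before KRT18 (690 and 727) in SUM159, and EPCAM (35 and 32.8) before KRT81 (25.1 and 23.9) in A549.

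The makeup of the keratin pool differed accordingly. The 6 keratins held 98.1% to 98.4% of all counts on keratin genes in A549 and 89.5% to 90.5% in SUM159. Of their summed level per kilobase, the type I keratins KRT18 and KRT19 made up 57.9% and 58.2% in untreated A549 and 18.1% and 18.2% in untreated SUM159. The larger part of the SUM159 pool was thus of type II, chiefly KRT7. With PD the type I share in SUM159 was 12.2% and 11.7%, with IN 18.3% and 18.2%, and with PI 11.7% and 11.9%. In A549 it was 59.7% and 61.2% with PD, 57.1% and 58% with IN, and 57.7% and 59.9% with PI. Canonical transcript lengths gave 47.4% and 47.7% in untreated A549 and 16% and 16.2% in untreated SUM159, against 10.7% and 10.3% in SUM159 with PD, so the gap between lines and the lower share with PD did not hinge on the length used. These shares are descriptions, since an exact test of 2 libraries against 2 cannot reach the threshold.

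**Figure D2:**
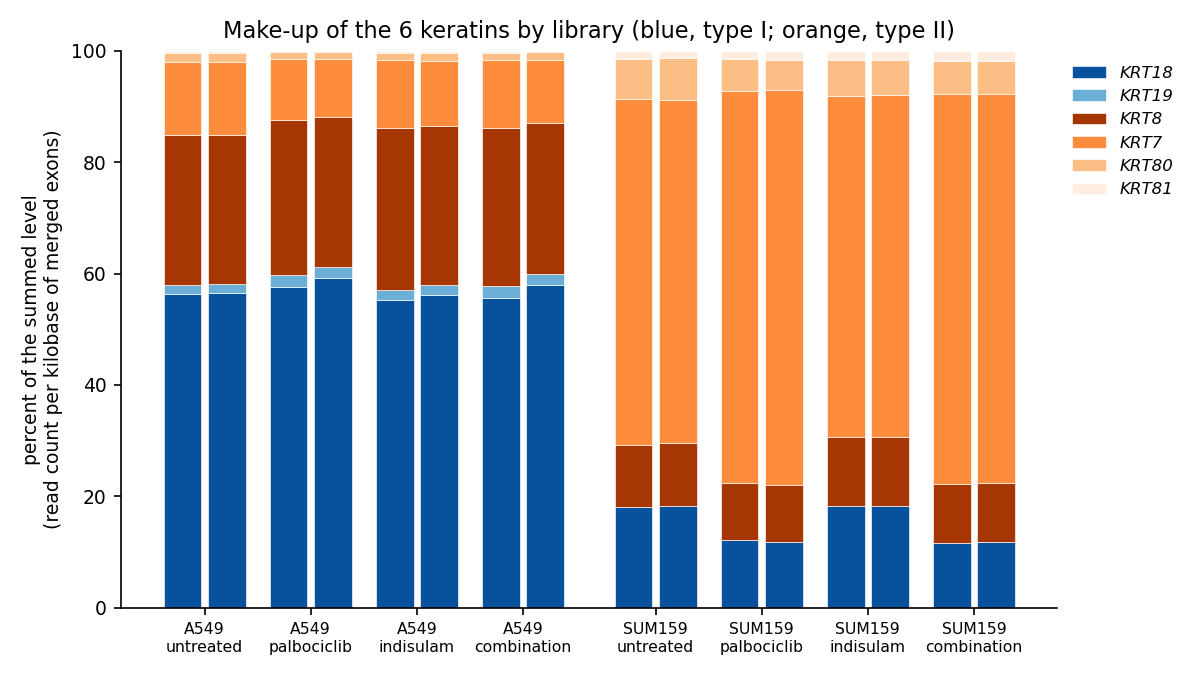
Share of each keratin (percent of the summed read count per kilobase of merged exons) in every library, by line and treatment, with type I keratins in blue and type II in orange. KRT18 fills more than any other keratin in A549, KRT7 does so in SUM159, and the blue part of the SUM159 bars is smaller with palbociclib and with the combination.

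Other keratins outside the 6 also separated the lines. KRT4, a type II keratin of moist stratified epithelia, was at 148 and 150 CPM in untreated A549 and had 0 or 1 count in every SUM159 library. KRT75, a hair follicle keratin, was at 273 and 274 CPM in untreated SUM159 and had 0 or 1 count in every A549 library. Among 55 protein-coding keratin genes, 13 reached an average of 1 CPM in A549 and 14 did so in SUM159.

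Palbociclib alone was examined first. In A549 KRT8, KRT18, KRT19 and E-cadherin were higher with PD and vimentin was lower, while KRT7 did not pass. Of the 10 members 5 passed the test (4 higher, 1 lower), a share near that of all genes, of which 43.2% of 15744 passed (22% higher, 21.1% lower). KRT19 was at 167 CPM in each PD library against 109 and 106 CPM in untreated cells, up by 0.64 ± 0.0444 on the log2 scale (1.55-fold, adjusted p = 3.3e-08). KRT18 was at 6286 and 6896 CPM with PD against 4906 and 4829, up by 0.44 ± 0.0477 (1.35-fold, adjusted p = 4.08e-06). KRT8 was at 6823 and 7041 CPM against 5279 and 5128, up by 0.41 ± 0.0413 (1.33-fold, adjusted p = 1.65e-06). In all of these the treated libraries lay above the untreated ones, as they also did for KRT7 and CDH2, which did not pass. The share of all genes so separated was not counted, so this separation says little.

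CDH1 was at 97.4 and 101 CPM with PD in A549 against 78.9 and 80.6 CPM, up by 0.32 ± 0.0463 (1.25-fold, adjusted p = 7.19e-05). VIM was at 724 and 698 CPM against 929 and 922, and fell by 0.38 on the log2 scale (SE 0.0373, adjusted p = 1.37e-06). E-cadherin and vimentin, which oppose each other in the textbook transition, thus moved in opposite directions here. Vimentin went against its own list of mesenchymal matrix, surface and cytoskeletal genes. Of the 26 tested in A549, 12 rose and 3 fell with PD (median 0.26), beside 22% of all genes higher and 21.1% lower. The other mesenchymal member, CDH2, was at 48.6 and 44.9 CPM against 43.7 and 44.4 CPM, with a log2 difference of 0.08 (interval -0.05 to 0.20, adjusted p = 0.297). EPCAM was at 23.5 and 21.8 CPM against 26.1 and 24.4 CPM, and its difference of -0.16 did not pass (adjusted p = 0.0854). KRT7 (0.09, interval 0.00 to 0.18), KRT80 (-0.02, interval -0.13 to 0.09) and KRT81 (-0.23, interval -0.43 to -0.04) did not pass either.

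Among the 6 keratin members, those that rose with PD in SUM159 (KRT7, KRT8 and KRT81) were of type II. Of their type I members KRT19 had too few counts to judge, which leaves KRT18 alone. Outside the 6 the type I keratins KRT15 (25.9 and 26 against 14.8 and 14.6 CPM) and KRT34 (8.21 and 8.27 against 2.89 and 2.58 CPM) were higher with PD. KRT10, also of type I, was not (26.6 and 26.2 against 30.1 and 27.7 CPM), so the type is not a rule for keratins at large. Of the 10 members 6 passed (3 higher, 3 lower), beside 54.5% of 16080 genes (25.5% higher, 29% lower). KRT7 was at 3110 and 3194 CPM with PD against 1994 and 1981 CPM, up by 0.67 ± 0.0337 (1.59-fold, adjusted p = 3.65e-11). KRT81 was at 32.7 and 34.9 CPM against 21.9 and 21.1 CPM, up by 0.66 ± 0.0645 (1.58-fold, adjusted p = 1.89e-07). KRT8 was at 781 and 791 CPM against 618 and 630 CPM, up by 0.33 ± 0.0346 (1.26-fold, adjusted p = 3.59e-07). KRT80, also of type II, was at 270 and 268 CPM against 255 and 263 CPM, a difference of 0.06 (interval -0.02 to 0.13) that did not pass.

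KRT18, the type I partner of KRT8, was at 414 and 405 CPM with PD in SUM159 against 446 and 449 CPM, and fell by 0.13 (SE 0.0337, adjusted p = 0.00385). VIM was at 3588 and 3563 CPM against 4141 and 3964 CPM, and fell by 0.18 (SE 0.0346, adjusted p = 2.9e-04). CDH2 was at 183 and 175 CPM against 190 and 195 CPM, and its difference of -0.11 (adjusted p = 0.0287) was past the threshold by little. Without UT replicate 1, UT replicate 2 or PD replicate 2 the CDH2 call was lost (-0.12, -0.09 and -0.07), as it was under DESeq2 (-0.10). Scaling by total counts moved the median of all genes by 0.11 and left KRT18 at -0.02, VIM at -0.07 and CDH2 at -5.2e-04, none of them called. The ratio of KRT8 to KRT18 per kilobase of merged exons was 0.619 and 0.625 in untreated SUM159, and 0.842 and 0.872 with PD. In A549 the same ratio was 0.48 and 0.474 in untreated cells and 0.484 and 0.455 with PD.

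**Figure D3:**
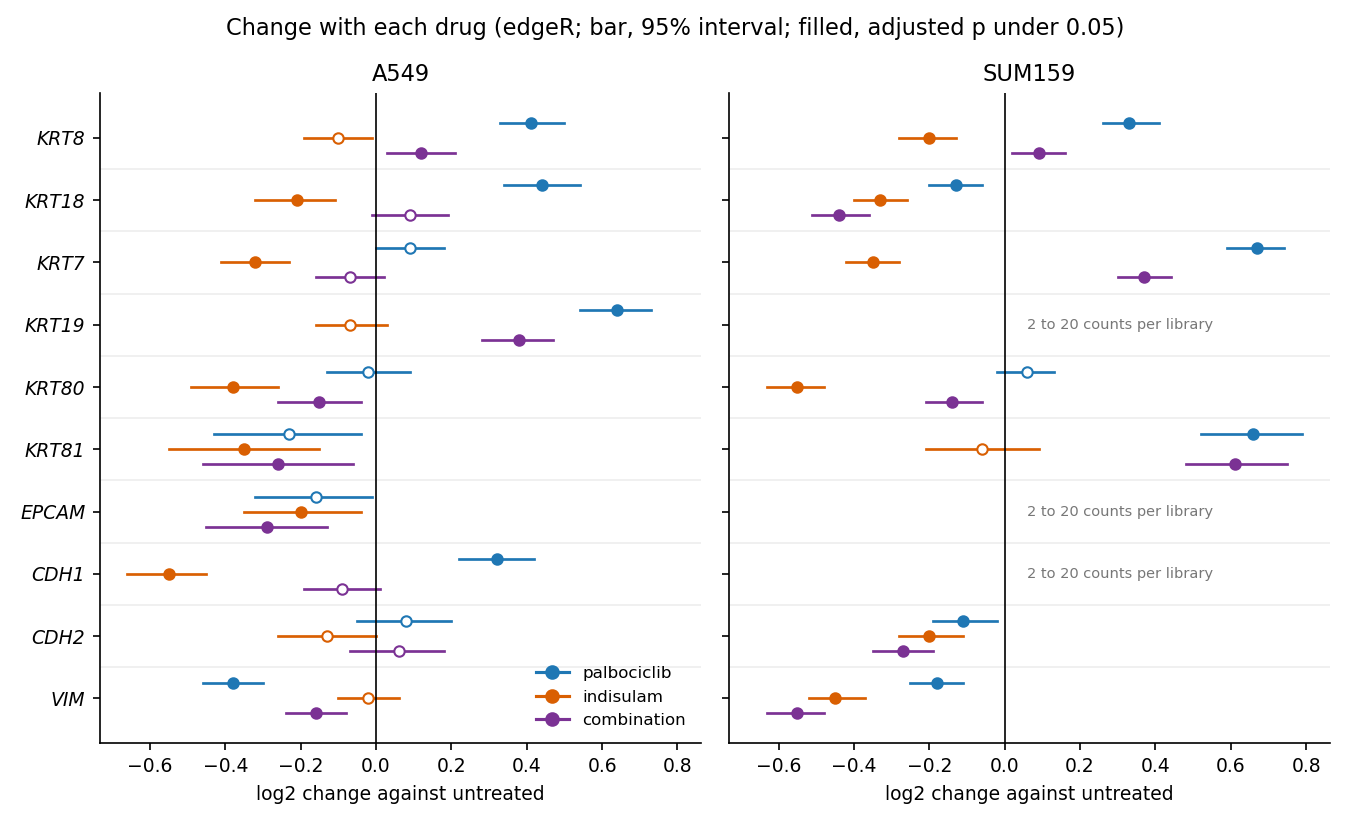
Log2 change against untreated cells of each member with palbociclib, indisulam and the combination in A549 (left) and SUM159 (right), with 95% intervals as bars and filled points where the edgeR adjusted p was under 0.05. Every filled indisulam point lies below 0 in both lines, while KRT8 lies above 0 with palbociclib in both and KRT18 lies above 0 with palbociclib in A549 and below 0 in SUM159.

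Indisulam alone was followed by lower levels. In A549 6 members passed, all of them lower, beside 49.2% of all genes called (23.3% higher, 25.9% lower). CDH1 was at 54.1 and 54.7 CPM with IN, under the 78.9 and 80.6 CPM of untreated cells, and fell by 0.55 on the log2 scale (SE 0.0489, adjusted p = 4.64e-07). KRT80 was at 143 and 157 CPM against 197 and 192, and fell by 0.38 (SE 0.0519, adjusted p = 3.41e-05). KRT7 was at 1170 and 1178 CPM against 1485 and 1452, and fell by 0.32 (SE 0.0423, adjusted p = 2.08e-05).

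KRT18 was at 4078 and 4318 CPM with IN in A549, and fell by 0.21 (SE 0.0477, adjusted p = 0.00192). KRT81 was at 17.7 and 18 CPM and its difference was -0.35 ± 0.0949 (adjusted p = 0.00723). Its call was lost without UT replicate 1 (-0.30) or IN replicate 1 (-0.33). EPCAM was at 22.1 and 22 CPM, with a difference of -0.20 ± 0.0739 (adjusted p = 0.0408) that lost its call without any single UT or IN library (-0.24 to -0.14) and under DESeq2 (adjusted p = 0.163). KRT8 (-0.10, adjusted p = 0.0582), KRT19 (-0.07, adjusted p = 0.257), CDH2 (-0.13, adjusted p = 0.0903) and VIM (-0.02, interval -0.10 to 0.06) did not pass. Vimentin, the member that fell with PD, was thus at 919 and 905 CPM with IN, close to untreated cells.

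In SUM159 6 members passed with IN and all were lower, beside 46.9% of all genes called (21.9% higher, 24.9% lower). KRT80 was at 175 and 178 CPM against 255 and 263 CPM, and fell by 0.55 (SE 0.0357, adjusted p = 2.97e-09). VIM was at 2936 and 3013 CPM against 4141 and 3964, and fell by 0.45 (SE 0.0347, adjusted p = 2.45e-08). KRT7 was at 1546 and 1570 CPM and fell by 0.35 (SE 0.0337, adjusted p = 2.88e-07). Among the lower-moving members were thus both epithelial keratins and the mesenchymal filament.

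KRT18 was at 354 and 358 CPM with IN in SUM159, and fell by 0.33 (SE 0.0339, adjusted p = 6.18e-07). KRT8 was at 533 and 552 CPM and fell by 0.20 (SE 0.0347, adjusted p = 1.41e-04). CDH2 was at 169 and 167 CPM and fell by 0.20 (SE 0.0391, adjusted p = 5.8e-04). KRT81, at 21.3 and 20.1 CPM against 21.9 and 21.1 CPM, did not pass (-0.06, interval -0.21 to 0.09).

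The combination was the condition of main interest in the study. In A549 the levels with PI lay between those with each drug for most members. Against untreated cells 6 members passed (2 higher, 4 lower), beside 57.8% of all genes (27.4% higher, 30.4% lower). KRT19 was at 143 and 136 CPM, up by 0.38 ± 0.0451 (1.3-fold, adjusted p = 5.31e-06). VIM was at 819 and 835 CPM, and fell by 0.16 (SE 0.0373, adjusted p = 0.00177), a call that scaling by total counts did not give (-0.07). EPCAM was at 21 and 20.3 CPM, and its difference of -0.29 ± 0.0752 (adjusted p = 0.00434) lost its call without UT replicate 1 (-0.24). These 3 members kept the sign of their PD difference.

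The remaining called members in A549 with PI were near the threshold. KRT8 was at 5822 and 5504 CPM against 5279 and 5128 (0.12, adjusted p = 0.0199), and the call was lost without UT replicate 2 (0.10) or PI replicate 1 (0.08). KRT80 was at 179 and 172 CPM against 197 and 192 (-0.15, adjusted p = 0.0233), and the call was lost without UT replicate 1 (-0.13), UT replicate 2 (-0.16) or PI replicate 2 (-0.13). KRT81 was at 21 and 17 CPM against 23.3 and 22.1 (-0.26, adjusted p = 0.0303), and the call was lost without either UT library, either IN library or PI replicate 2, where the difference was -0.12. CDH1 was at 74 and 76.1 CPM, between the level with PD and that with IN, and its difference from untreated cells was -0.09 (interval -0.19 to 0.01). KRT18, KRT7 and CDH2 did not pass (0.09, -0.07 and 0.06).

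Set against each single drug, the direction of the PI libraries in A549 was plain. Against PD 6 members passed (1 higher, 5 lower), beside 51.5% of all genes (23.7% higher, 27.8% lower). CDH1 (-0.40), KRT18 (-0.35), KRT8 (-0.29), KRT19 (-0.26) and KRT7 (-0.17) were lower and VIM (0.22) was higher. Against IN 8 members passed (7 higher, 1 lower), beside 38.8% of all genes (18.6% higher, 20.1% lower). CDH1 (0.46), KRT19 (0.44), KRT18 (0.30), KRT7 (0.25), KRT80 (0.23), KRT8 (0.22) and CDH2 (0.18) were higher and VIM (-0.14) was lower. Both comparisons use the same PI libraries. Without IN replicate 1 the calls of KRT80 (0.16), CDH2 (0.18) and VIM (-0.13) against IN were lost, which left 5 members. CDH2 also lost its call without IN replicate 2 (0.19) or PI replicate 2 (0.16), VIM without PI replicate 1 (-0.11), and KRT7 lost its call against PD without PI replicate 2 (-0.10).

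In SUM159 the combination left KRT7 and KRT81 high and KRT18, VIM and CDH2 below their untreated level. Of the members 7 passed (3 higher, 4 lower), beside 65.3% of all genes (32.2% higher, 33.1% lower). KRT81 was at 33.5 and 32.2 CPM, up by 0.61 ± 0.065 (1.53-fold, adjusted p = 2.89e-07). KRT7 was at 2550 and 2580 CPM, up by 0.37 ± 0.0336 (1.29-fold, adjusted p = 4.3e-08). KRT8 was at 657 and 672 CPM, and its difference of 0.09 (adjusted p = 0.0294) lost its call without any single UT or PI library (0.07 to 0.11).

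VIM was at 2772 and 2753 CPM with PI in SUM159, and fell by 0.55 (SE 0.0347, adjusted p = 3.42e-10), to 0.682 of its untreated level. KRT18 was at 325 and 336 CPM, and fell by 0.44 (SE 0.0339, adjusted p = 5.7e-09). CDH2 was at 156 and 163 CPM, and fell by 0.27 (SE 0.039, adjusted p = 1.15e-05). For these 3 genes each treated group lay below the untreated libraries. Such separation of 2 libraries from 2 says little: VIM with IN in A549 was also below, with a change of -0.02 that did not pass. Its share over all genes was not counted. KRT80 was at 234 and 237 CPM, and fell by 0.14 (SE 0.0351, adjusted p = 0.00251), although scaling by total counts gave 0.01.

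Against PD, SUM159 cells with PI had 6 members past the threshold, all lower, beside 48.3% of all genes (23.4% higher, 24.9% lower). These were VIM (-0.37), KRT18 (-0.31), KRT7 (-0.30), KRT8 (-0.24), KRT80 (-0.19) and CDH2 (-0.16). KRT81 did not differ past the threshold (-0.04, interval -0.16 to 0.08). Against IN 6 passed (4 higher, 2 lower), beside 52.9% of all genes (24.9% higher, 28% lower). KRT7 (0.72), KRT81 (0.67), KRT80 (0.42) and KRT8 (0.29) were higher, and KRT18 (-0.11) and VIM (-0.11) were lower, the last pair being without a call when scaled by total counts (-0.01 each). CDH2 did not pass against IN (-0.07, adjusted p = 0.122). KRT18 also lost its call without IN replicate 2 (-0.11) or PI replicate 1 (-0.08), and VIM without IN replicate 2 or PI replicate 2 (-0.10 each).

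Whether the combination differed from the sum of both drugs was tested with a contrast on log2 changes. One member passed in each line, beside 3.53% of all genes in A549 (1.49% higher, 2.05% lower) and 4.38% in SUM159 (2.22% higher, 2.16% lower). In SUM159 it was KRT80, which with PI lay above the sum of its PD (0.06) and IN (-0.55) changes by 0.36 ± 0.0497 (adjusted p = 0.00107). The other SUM159 members that had enough counts lay within 0.07 of the sum, with intervals for KRT7 of -0.05 to 0.15, for KRT18 of -0.08 to 0.12 and for VIM of -0.03 to 0.18. In A549 it was VIM, higher than the sum by 0.24 ± 0.0527 (adjusted p = 0.024). This VIM call was lost without either UT library, either IN library or PD replicate 2, where the values lay between 0.21 and 0.25. No other A549 member passed, although KRT81 (0.32, interval 0.04 to 0.61) and KRT80 (0.25, adjusted p = 0.0756) lay further from the sum than VIM. KRT8 (-0.19, adjusted p = 0.0882), KRT19 (-0.20, interval -0.33 to -0.06) and KRT7 (0.16, interval 0.03 to 0.29) also lay off it.

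**Figure D4:**
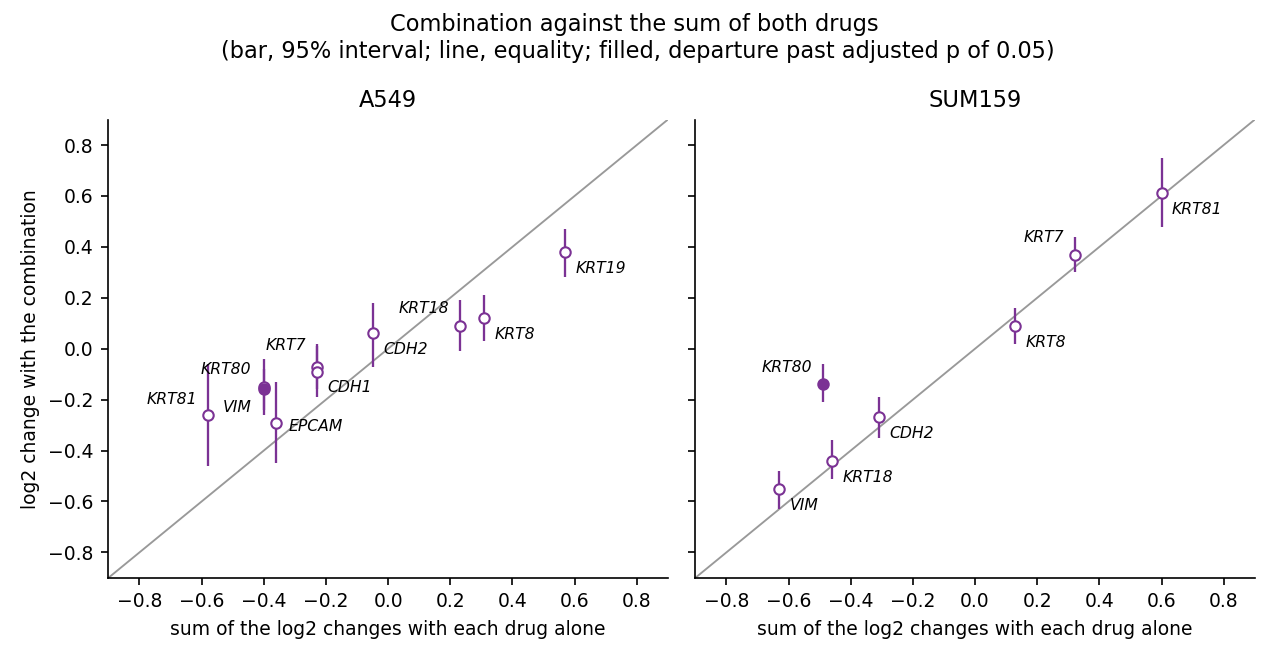
Log2 change with the combination (vertical, with 95% interval) against the sum of the log2 changes with palbociclib and with indisulam alone (horizontal) for the members with enough counts in A549 (left) and SUM159 (right). Points on the grey line equal the sum, and the filled points, VIM in A549 and KRT80 in SUM159, lie above it past an adjusted p of 0.05.

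The responses of the 2 lines were compared with interaction contrasts in the fit of all libraries. In that fit the median of all genes was not 0 but 0.08 for PD, 0.02 for IN and 0.10 for PI, so each difference (SUM159 minus A549) is read against it, and the difference between the separate fits of each line is given beside it. For PD 4 members passed, beside 12.8% of all genes (9.65% higher, 3.15% lower). The split over all genes is unstable: 75.4% of calls were higher with all libraries, and 23.2% to 30.6% without any 1 of the 8 A549 libraries, with the median of all genes moved by -0.17 to -0.13. KRT81 differed by 0.99 ± 0.113 (0.89 between the separate fits, adjusted p = 1.24e-06), from -0.23 in A549 to 0.66 in SUM159. KRT7 differed by 0.67 ± 0.0554 (0.58 between the separate fits, adjusted p = 8.64e-09). KRT18 differed by -0.47 ± 0.0622 (-0.57 between the separate fits, adjusted p = 1.02e-05), being called higher in A549 and lower in SUM159. The KRT8 response did not differ past the threshold (0.02, interval -0.10 to 0.13, and -0.08 between the separate fits). KRT8 and KRT18 had the same direction with PD in A549 and opposite ones in SUM159. There the KRT18 fall was small and lost its call when scaled by total counts.

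VIM fell with PD in each line, and less in SUM159, by a difference of 0.30 ± 0.0528 (adjusted p = 3.85e-04). The separate fits gave 0.20, and the call was lost without any 1 of the 8 A549 libraries (0.11 to 0.15). With IN the VIM difference had the other sign and was the sole call among the members, beside 15% of all genes (8.04% higher, 6.97% lower), at -0.42 ± 0.0528 (-0.43 between the separate fits, adjusted p = 6.6e-06). The intervals of KRT19 (-0.18 to 1.84) and CDH1 (-0.01 to 2.09) were too wide for a statement.

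With PI 6 members differed between lines, beside 30.9% of all genes (19.1% higher, 11.8% lower). Here the share of higher calls over all genes was 61.8%, and 35.5% to 39.7% without any 1 A549 library. KRT81 (0.94 ± 0.115), KRT7 (0.51 ± 0.0554) and KRT18 (-0.46 ± 0.0623) did so in the same direction as with PD, with 0.87, 0.44 and -0.53 between the separate fits. VIM differed by -0.32 ± 0.0528 (adjusted p = 4.6e-05) and CDH2 by -0.26 ± 0.0698 (adjusted p = 0.00617), with -0.39 and -0.33 between the separate fits. EPCAM differed by 1.35 ± 0.461 (1.28 between the separate fits, adjusted p = 0.0286), but its SUM159 values were 2 and 9 counts in untreated and 19 and 12 in PI libraries. Without SUM159 UT replicate 1 the EPCAM value was 0.65, and the call was also lost without SUM159 PI replicate 1, without 6 of the 8 A549 libraries (all but UT replicate 2 and PD replicate 2) and under DESeq2 (1.27, adjusted p = 0.053).

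The keratins beyond the simple type were followed with a list of 22 stratified and hair-type keratins, which includes KRT80 and KRT81. In SUM159 13 of them were tested, and with PD 8 rose and 0 fell, with a median of 0.72 beside 0.02 over all genes, of which 54.5% were called (25.5% higher, 29% lower). With IN 6 rose and 2 fell (median 0.25, all genes 0.01, 21.9% of them higher and 24.9% lower), and with PI 11 rose and 1 fell (median 0.91, all genes 0.01, 32.2% of them higher and 33.1% lower). KRT16 and KRT79 are among the 13 only through their PI libraries, so the PI count and median are not free of that choice. KRT34, a hair keratin of type I, was at 2.89 and 2.58 CPM in untreated cells, 8.21 and 8.27 with PD, 4.21 and 3.22 with IN and 9.72 and 9.84 with PI, where it was up by 1.84 ± 0.139 (adjusted p = 3.79e-09). KRT15, a type I keratin of basal cells, was at 14.8 and 14.6 CPM in untreated cells and 33.3 and 32 with PI, up by 1.15 ± 0.0725 (adjusted p = 3.57e-10). In KRT34 and KRT15 all treated libraries lay above the untreated ones, a separation whose share over all genes was not counted.

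Several of these keratins stayed at low levels throughout. KRT14, a basal keratin of type I, was at 15 and 14 counts in untreated SUM159 and at 74 and 66 with PI, with a fitted change of 1.78 ± 0.243 (adjusted p = 5.97e-06). KRT17, another of the basal type, was at 28 and 29 counts and at 138 and 112 with PI (1.64 ± 0.223, adjusted p = 5.52e-06). KRT16 and KRT79 had 1 to 3 counts in untreated libraries, so no size is given for them. Only with PI did both libraries of a group reach 10 counts (12 and 13 for KRT16, 18 and 10 for KRT79). These genes thus passed the count filter through the group where they were highest. KRT75, the follicle keratin, was at 409 and 399 CPM with PD, 206 and 204 with IN and 307 and 322 with PI, against 273 and 274. It rose by 0.56 ± 0.0357 with PD (adjusted p = 7.44e-10) and fell by 0.41 with IN (SE 0.0365, adjusted p = 1.05e-07), the pattern of KRT7.

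**Figure D5:**
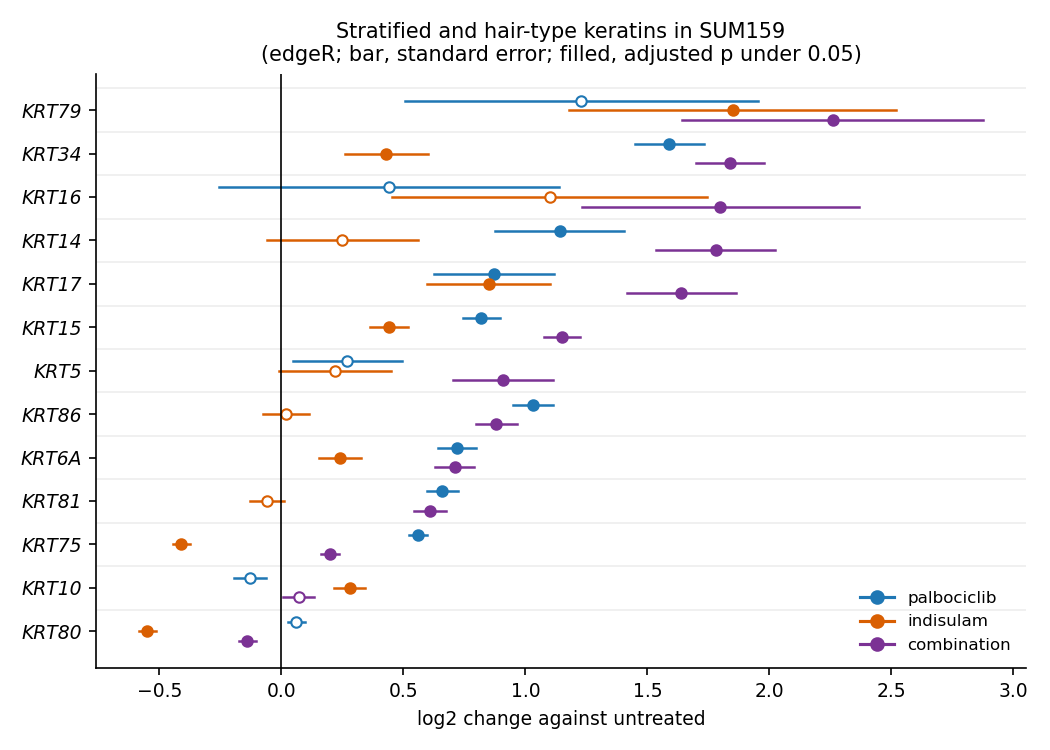
Log2 change against untreated SUM159 cells of the 13 stratified and hair-type keratins tested, for palbociclib, indisulam and the combination, with standard errors as bars and filled points where the edgeR adjusted p was under 0.05. With the combination 11 of the 13 lie above 0 past the threshold, KRT80 lies below it, and the widest bars belong to KRT79 and KRT16, which had few counts and passed the count filter only through the combination libraries.

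In A549 10 keratins of that list were tested, and 2 rose and 0 fell with PD, 1 rose and 2 fell with IN, and 1 rose and 4 fell with PI. Of all genes there 43.2%, 49.2% and 57.8% were called. KRT4 was at 211 and 226 CPM with PD, above the untreated 148 and 150 CPM, and at 142 and 152 CPM with PI. Sequence likeness limits some values. KRT86, which is close in sequence to KRT81 and whose span encloses it on the opposite strand, was at 9.69 and 10.2 CPM in untreated SUM159 and 21.2 and 19.5 CPM with PD (1.03 ± 0.0825, adjusted p = 1.48e-08), so reads of the pair may be exchanged. KRT8 has 51 annotated pseudogenes, which together held 0.252% to 0.488% of the KRT8 count in A549 and 1.15% to 2.39% in SUM159. The 67 pseudogenes of KRT18 held at most 0.709% of its count. KRT8 and KRT18 share 525 exonic bases on opposite strands, and VIM shares 656 with VIM-AS1, which had at most 4.53 CPM. The strand setting of the counting is not given in the sources used here.

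Other cytoplasmic intermediate filament genes were few. In A549 6 were tested, with 1 rising and 2 falling with PD, 0 and 3 with IN and 1 and 3 with PI. The shares of all genes called were 43.2%, 49.2% and 57.8%. NEFL, the neurofilament light chain, was at 14.5 and 13.1 CPM in untreated A549, 23.6 and 25 with PD and 21.2 and 20.6 with PI (0.60 ± 0.084 with PI, adjusted p = 2.54e-05). SYNM, synemin, which joins vimentin filaments, was at 66.4 and 67.1 CPM in untreated A549 and 48.4 and 50.5 with PI, and fell by 0.43 (SE 0.0597, adjusted p = 2.13e-05). In SUM159 3 were tested, and SYNM was at 21.1 and 22.5 CPM and at 24.9 and 24.1 with PI (0.17, adjusted p = 0.0289).

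Of 19 genes for filament linkers and desmosomes, which tie keratins to cell junctions, 15 were tested in SUM159. There 5 rose and 3 fell with PD, 6 and 4 did so with IN and 7 and 3 with PI, beside 54.5%, 46.9% and 65.3% of all genes called, so with PD and PI the count was near the background. PPL, periplakin, was at 4.34 and 4.79 CPM in untreated SUM159, 14.8 and 15.3 with PD, 4.93 and 4.71 with IN and 14.9 and 15.8 with PI, up by 1.75 ± 0.102 with PI (adjusted p = 1.31e-10). TRIM29, a keratin-associated protein of stratified epithelia, was at 3.86 and 3.88 CPM and at 11.8 and 10 with PI, up by 1.50 ± 0.139 (adjusted p = 5.35e-08). PPL and TRIM29 were named by a rule on their change with PI, and averaged 5 CPM only through treated libraries. In A549 17 of the genes were tested, with 4 up and 3 down with PD, 6 and 3 with IN and 6 and 5 with PI. Beside these 43.2%, 49.2% and 57.8% of all genes were called, and PPL was up by 0.50 ± 0.0567 with PI (adjusted p = 2.84e-06).

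The epithelial junction and surface list includes CDH1 and EPCAM. Of 32 genes tested in A549 16 rose and 3 fell with PD (median 0.29, all genes 0.03), 6 rose and 15 fell with IN (median -0.21, all genes 0.01) and 11 rose and 9 fell with PI (median -0.01), beside 43.2%, 49.2% and 57.8% of all genes called. LAMB3, a laminin chain of the basement membrane, did not share the fall with IN: it was at 76.9 and 74.1 CPM in untreated A549, 118 and 120 with PD, 138 and 145 with IN and 217 and 194 with PI, up by 1.45 ± 0.0555 (adjusted p = 1.56e-11). In SUM159 24 were tested, with 8 up and 5 down with PD, 2 and 3 with IN and 9 and 4 with PI. Of all genes in that line 54.5%, 46.9% and 65.3% were called. ITGB4, the integrin chain of hemidesmosomes, was at 52.2 CPM in each untreated SUM159 library, 114 and 123 with PD and 144 and 137 with PI, up by 1.43 ± 0.049 (adjusted p = 1.08e-13).

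Of 12 regulators of epithelial identity tested in A549, 1 rose, 6 fell and 5 did not pass with IN, beside 23.3% of all genes higher and 25.9% lower. With PD 4 rose and 2 fell and with PI 1 and 4 did so, beside 43.2% and 57.8% of all genes called. ESRP1, a splicing factor of epithelial cells, was at 13 and 13.2 CPM in untreated A549, 12.9 and 11.4 with PD, 5.99 and 4.71 with IN and 4.37 and 3.84 with PI, and fell by 1.67 with PI (SE 0.137, adjusted p = 9.42e-08). In SUM159 only 5 of them were tested, with 0 up and 1 down with PD, 4 and 0 with IN and 3 and 0 with PI. The shares of all genes called in SUM159 were 54.5%, 46.9% and 65.3%. EHF, an epithelial ETS factor, was at 4.96 and 4.02 CPM there and at 8.1 and 9.2 with PI, up by 0.94 ± 0.126 (adjusted p = 5.04e-06). It too averaged 5 CPM only through treated libraries.

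Of the mesenchymal regulators 11 were tested in SUM159, and 1 rose and 5 fell with PD, 2 and 3 with IN, and 3 and 5 with PI. These counts were near the background, since 54.5%, 46.9% and 65.3% of all genes were called. SNAI2, the repressor of E-cadherin also called SLUG, was at 61.1 and 61.3 CPM in untreated SUM159, 62.4 and 58 with PD, 42.2 and 42.4 with IN and 40.9 and 43.1 with PI, and fell by 0.54 with PI (SE 0.0527, adjusted p = 9.41e-08). FOXC2 was at 33.6 and 30 CPM and at 22.8 and 20.9 with PI, and fell by 0.53 (SE 0.0705, adjusted p = 3.96e-06). In A549 10 were tested, with 0 up and 4 down with PD, 1 and 2 with IN and 1 and 2 with PI. Beside them 43.2%, 49.2% and 57.8% of all genes were called, and SNAI2 had 5 counts in each untreated library.

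The list of mesenchymal matrix, surface and cytoskeletal genes, which holds VIM and CDH2, was tested for all its 36 genes in SUM159. There 22 rose and 4 fell with PD (median 0.26), 6 rose and 14 fell with IN (median -0.10) and 16 rose and 10 fell with PI (median 0.18), beside 54.5%, 46.9% and 65.3% of all genes called. VIM and CDH2 were among the lower ones in each case, so with PD and PI, but not with IN, they were in the smaller group. PDGFRB, a growth factor receptor of stromal cells, was at 14.6 and 14 CPM in untreated SUM159 and 35.5 and 34.4 with PI, up by 1.29 ± 0.0692 (adjusted p = 4.1e-11). In A549 26 were tested, and 12 rose and 3 fell with PD (median 0.26). With IN 6 rose and 5 fell (median -0.02), and with PI 12 rose and 7 fell (median 0.22). There VIM was among the lower ones with PD and with PI, the smaller group in each, and CDH2 did not pass. The shares of all genes called in A549 were 43.2%, 49.2% and 57.8%.

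For each member with at least 5 CPM, the gene whose log2 CPM over the 8 libraries of a line was most like it was found by Pearson's r among 10650 genes in A549 and 10566 in SUM159. These 8 libraries form 4 groups, so the values describe group patterns. Each r is the highest over all those genes, so a high value follows in part from that choice. No link between the genes was tested. In A549 the nearest were MCL1 for KRT8 (0.999), ERCC8 for KRT7 (0.996), PLAU for KRT18 (0.995), SNRPD3 for VIM (0.994), CASTOR3P for CDH1 (0.993), SLC23A2 for KRT19 (0.992), CSNK1A1 for EPCAM (0.99), NUDT19 for KRT80 (0.973), SOCS5 for CDH2 (0.967) and ZBTB12 for KRT81 (0.966). In SUM159 they were SND1 for KRT8 (0.999), ANXA5 for KRT18 (0.998), ZHX1 for CDH2 (0.998), ADAMTS2 for KRT7 (0.997), SIL1 for KRT81 (0.996), GOT2 for VIM (0.996) and SEMA7A for KRT80 (0.99). Among the members themselves, KRT8 and KRT18 were closest to each other in A549 (0.973), whereas in SUM159 KRT8 was closest to KRT7 (0.978) and KRT18 to VIM (0.99).

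Gene counts per library ran from 18306636 to 34075588. MKI67, a proliferation marker, changed with PD by -2.68 in A549 and -2.14 in SUM159 and with PI by -2.99 and -2.58 (log2), so values of the members with PD and PI came from cells with a lower proliferation signal. Its part in the values of the members was not tested. RBM39 mRNA was at 173 and 178 CPM in untreated A549 and 367 and 362 with IN, and at 229 and 224 against 485 and 478 in SUM159, which does not report on its protein. Of 6 markers of lung alveolar cells, NKX2-1, SFTPA1, SFTPB and SFTPC were at or under 0.428 CPM in A549, with NAPSA at 0.368 to 1.13 and AGER at 2.57 to 4.79 CPM. In SUM159 PGR was at or under 0.0401 CPM and ESR1 between 0.262 and 0.795 CPM, with FOXA1 at 1.71 to 3.83, GATA3 at 4.96 to 6.31 and ERBB2 at 98.3 to 145 CPM of the same luminal list. Of the basal list KRT5, KRT14 and KRT17 were at or under 4.3 CPM, TP63 was at 17.1 to 25.4 and EGFR at 112 to 162 CPM. The fibroblast-list genes COL1A1 (626 to 809 CPM), PDGFRA (67.8 to 86.4 CPM) and DCN (47.4 to 113 CPM) were high in all 8 libraries. Of the same list PDGFRB was at 14 to 35.5 CPM, COL3A1 at 3.45 to 9.24 CPM and LUM at only 0.191 to 0.638 CPM. The summed fibroblast list was 914 to 922 CPM in untreated SUM159 and 942 to 948 with PI. There COL1A1, its largest part, fell by 0.14 and LUM (-0.07) did not pass, while PDGFRB (1.29), DCN (1.19), COL3A1 (1.14) and PDGFRA (0.21) rose. The part of these genes in other values was not tested. Blood and endothelial markers were near 0 in all libraries, except CD14 in A549 (5.12 to 8.5 CPM) and, in SUM159, CD14 (0.957 to 2.89 CPM), PTPRC (3.05 to 4.53 CPM) and PECAM1 (17.4 to 38.8 CPM). The summed endothelial list in SUM159, nearly all of it PECAM1, was 17.6 to 19.7 CPM in untreated cells, 22.9 to 24.2 with PD, 28.1 to 31 with IN and 37.2 to 39.3 with PI, while CDH5, VWF and KDR were at or under 0.353 CPM, and its part in other values was not tested. CDKN2A had 1.35 to 2.48 CPM in A549, which the study calls null for its product p16, and at most 1 count in SUM159, and gene counts do not resolve which of its transcripts was read.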

How the data were processed

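The authors trimmed 75-base paired reads of stranded poly(A) libraries with SeqPurge and, per the labels, aligned them to GRCh38 with HISAT2 2.2.1 and counted them per gene with HTSeq. The strand setting and annotation release are not given in the sources used here. The deposited values are raw gene counts per library, 18306636 to 34075588 in sum. Reads without a feature (3.89% to 6.78%), ambiguous (4.38% to 5.62%) or not unique (4.25% to 5.25%) name no gene and were left out. Symbols, coordinates and lengths came from GENCODE (58207 of 58676 identifiers matched).

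Counts were tested with edgeR 4.0.16 (R 4.3.3), using TMM factors, filterByExpr, the quasi-likelihood test and Benjamini-Hochberg adjustment over all genes tested (threshold 0.05). Each line was fitted on its own 8 libraries, and both on 16 libraries for contrasts between lines. Group labels came from the sample descriptions. The members and gene lists were chosen with earlier results of these data known, so no p-value is adjusted over a list alone. CPM are on the scaling of each line, chosen after seeing the data in place of the planned scaling over 16 libraries, which moved levels relative to untreated cells by up to 0.075 (log2). Per-length levels divide counts by merged exon length and by the library's sum. Other genes were named by rule, up to 2 per list, from those averaging at least 5 CPM in a line. Those with the largest called change with PI in either line were taken. That average included treated libraries. KRT34, PPL, TRIM29 and EHF were under 5 CPM in untreated SUM159, so their changes with PI are not free of the rule. KRT4, KRT10, KRT14, KRT16, KRT17, KRT75, KRT79, KRT86, MKI67, RBM39 and CDKN2A were chosen after their values were seen. A gene that the rule names is not reported here.

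The test was first tried on simulated counts with known changes. Alternatives were DESeq2 1.42.0, scaling by total counts, other count filters, a stricter threshold of 0.01, a replicate block, fits of only the groups compared, and leaving out each library. A count of 3 was taken as the smallest detectable. The exact intervals of the ratios between lines cover counting error only. All other intervals come from the edgeR fits and include the spread between libraries. Figures were drawn with matplotlib 3.10.9.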

Additional observations from a re-analysis of the deposited data

Results flagged for a closer look

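In 11 cases the response of a member differed between the 2 lines by the interaction contrast of edgeR (difference given as SUM159 minus A549, log2). With palbociclib these were KRT81 (0.99), KRT7 (0.67), KRT18 (-0.47) and VIM (0.3). With indisulam it was VIM (-0.42). With the combination they were EPCAM (1.35), KRT81 (0.94), KRT7 (0.51), KRT18 (-0.46), VIM (-0.32) and CDH2 (-0.26). Of all genes 12.8% were called with palbociclib, 15% with indisulam and 30.9% with the combination. The median of all genes in these contrasts was 0.08, 0.02 and 0.10, and medium, line and tissue of origin cannot be told apart. The EPCAM value rests on 2 and 9 untreated counts in SUM159 and was 0.65 without replicate 1 of that group, and the VIM value with palbociclib was 0.11 to 0.15 without any 1 A549 library, no longer past the threshold. Leaving out any 1 A549 library also gave CDH2 a called difference with palbociclib (-0.29 to -0.21, against -0.09 with all libraries). KRT81 shares sequence with KRT86, so its values may include reads of that gene.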

How the results depend on the processing

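Of 2601 alternative values for single members 2366 kept their direction and their side of the threshold, 104 lost a call, 52 gained one and 79 changed sign, and of 528 counts 486 stayed within 1.5 times the value reported. The cause of these shifts was not tested. Scaling by total counts moved the median of all genes by up to 0.15 (SUM159, PI) and the share of higher calls from 51.1% to 62.4% (A549, PD), 47.4% to 57.8% (PI) and 48.1% to 61.2% (PI against IN), and in SUM159 from 46.8% to 62.5% (PD), 46.8% to 57.9% (IN), 49.3% to 64.3% (PI) and 47.1% to 62.4% (PI against IN); it turned the sign in A549 of KRT80 with PD (0.04), VIM with IN (0.01), KRT7 (0.01) and CDH1 (1.2e-04) with PI, and KRT81 (0.0046) and CDH2 (0.0035) for PI against PD, and in SUM159 of KRT80 with PI (0.01), KRT81 for PI against PD (4.4e-04) and KRT19 (0.07) and CDH2 (0.02) for PI against IN. The KRT8 difference between lines with PD became -0.04 under total counts, -0.08 under DESeq2, -0.09 with at least 10 counts in every library and -0.02 without a filter; with PI it became -0.05 under DESeq2 and -0.07 with at least 10 counts, where KRT80 became -0.01 and -0.03. DESeq2 and the filter of 10 counts put 42.2% and 39.2% of called PD differences between lines higher (75.4% reported) and 44.7% and 39.9% of those with PI (61.8%). For the departure from additive changes, 556 genes were called in A549 (42.1% higher), against 998 (4 members) without a filter, 343 under DESeq2 (53.9% higher) and 100 (0 members) at 0.01; in SUM159 704 were called (50.7% higher), against 439 under DESeq2 and 200 at 0.01, and the share of higher calls was 62% with at least 10 counts and 29.8% without a filter, where CDH2 (-0.0012), KRT18 (-0.01) and KRT81 (-0.02) changed sign. At 0.01, 3 members passed in A549 with PI, and 1221 and 1312 genes differed between lines with PD and IN.

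Without single libraries, the departure was called for 52 to 976 genes and 0 to 4 members in A549 and for 207 to 941 genes in SUM159, and members called ranged from 3 to 7 (A549, PI), 5 to 8 (A549, PI against IN) and 1 to 2 (IN between lines), with 1546 to 3686 genes between lines for PD and 1725 to 3054 for IN. Sign changes came in A549 for KRT80 with PD (-0.08 to 0.03), KRT81 (-0.17 to 0.13) and CDH2 (-0.08 to 0.03) for PI against PD and KRT81 for PI against IN (-0.05 to 0.25). In SUM159 they came for KRT19 with PD (-0.02 to 0.76), IN (-0.09 to 1.36) and PI against IN (-0.62 to 0.83), for EPCAM with IN (-0.42 to 1.68) and PI against PD (-0.30 to 0.07), for CDH1 (-0.36 to 0.80) and KRT81 (-0.10 to 5.1e-04) for PI against PD, and in the departure for CDH1 (-1.14 to 0.31), EPCAM (-1.77 to 0.33), KRT19 (-0.93 to 0.51), CDH2 (-0.01 to 0.06), KRT18 (-0.01 to 0.05) and KRT81 (-0.04 to 0.06). Between lines they came with PD for KRT8 (-0.19 to 0.03), KRT80 (-0.05 to 0.20), CDH1 (-0.10 to 1.37) and KRT19 (-0.57 to 0.22), with IN for KRT19 (-0.02 to 1.41) and EPCAM (-0.23 to 1.88), and with PI for KRT8 (-0.16 to 0.05) and KRT80 (-0.10 to 0.10). None of these signs belonged to a called value except KRT80 with PI in SUM159. KRT19, EPCAM and CDH1 in SUM159 are limited by depth, at 2 to 20 counts.

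Replicate numbers did not pair the libraries: deviations of same-numbered libraries correlated between -0.114 and 0.114 with no common sign. A fit with the replicate number as a block called 6609 genes with PD in A549 and 8537 in SUM159, 470 in each departure, and changed no call of a member. With the numbers of PI crossed, an alternative added after seeing the data, PI against PD gave 7941 genes in A549 (7980 with the numbers as labelled) and 8231 in SUM159 (7443).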
